A study of Mus musculus with 6 samples.

Results

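The clustered histone genes were taken as every row of the read count table whose symbol starts with Hist1h, Hist2h, Hist3h or Hist4h. This rule gave 70 of the 40824 genes in the table, 6 of them for linker histone H1, 20 for H2A, 19 for H2B, 12 for H3 and 13 for H4. By cluster, 56 belong to Hist1 on chromosome 13, 10 to Hist2 on chromosome 3, 3 to Hist3 on chromosome 11 and 1 to Hist4 on chromosome 6. Reads were found for 62 of the 70 in 1567 liver nuclei, and 30 had reads in every library.

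All nuclei came from the livers of wild-type (WT) female C57BL/6J mice, an inbred laboratory strain, that had been mated at about 8 weeks of age. The 3 stages were gestation day 0 (G0), mid-gestation (G14.5, named after the gestation day) and day 7 after birth in lactating mothers (P7L). Each stage had 1 library labelled perfusion and 1 labelled liver tissue, and the protocol given for both is collagenase digestion of the perfused liver with hepatocyte enrichment on Percoll. The libraries held 184 (perfusion) and 252 (liver tissue) nuclei for G0, 301 and 224 for G14.5, and 298 and 308 for P7L, in the same order. The labels name no animal behind a library, so p-values measure the spread between libraries, which may be technical. The sample titles speak of nuclei, while the protocol text describes the picking of single hepatocytes.

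Replication-dependent histone genes lie in clusters and encode the H1, H2A, H2B, H3 and H4 proteins that package newly made DNA, and their transcription peaks in S phase of the cell cycle. Most of their mRNAs end in a conserved stem-loop in place of a poly(A) tail, and the stem-loop binding protein SLBP governs their processing and decay. Some clustered genes, among them the mouse H2B gene Hist1h2bc and the H1 gene Hist1h1c, are known to give polyadenylated transcripts in non-dividing cells as well. Smart-seq3xpress, the full-length single-cell method used here, primes on poly(A) tails, so transcripts that end at the stem-loop are poorly seen by it. Adult hepatocytes divide rarely, and the maternal liver is known to grow during pregnancy.

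The stem-loop is shown first because its forms separate H4 genes from the other classes and because it marks where a replication-dependent mRNA is cut. A 16-base element of the form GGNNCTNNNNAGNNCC was searched on the sense strand of annotated GRCm38 transcripts, in up to 100 bases after the stop codon. It was present in 46 of the 67 protein-coding members (68.7%), against 7 of 21607 other protein-coding genes (0.0324%). Many members without a match, such as Hist1h1b, Hist1h4k and Hist1h3h, have 0 annotated bases after the stop codon. For these the search could not find the element, so its absence is not shown. The 2 commonest forms and the 2 forms of the genes described below are given 5′ to 3′, with the 6-base stem arms in capitals and the 4-base loop in lower case.
Hist1h1d, chr13:23555787-23555802, plus strand: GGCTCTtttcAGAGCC
Hist1h3e, chr13:23561903-23561918, minus strand: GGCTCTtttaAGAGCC
Hist1h4n, chr13:21831798-21831813, minus strand: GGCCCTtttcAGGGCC
Hist1h4i, chr13:22040966-22040981, minus strand: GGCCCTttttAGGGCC
The Hist1h1d form occurred in 26 members of the H1, H2A, H2B and H3 classes and in 0 H4 genes. The Hist1h4n form occurred in 7 members, all of them H4 genes, and the Hist1h4i form in 2 members, Hist1h4i and Hist2h4. Hist1h2bc, Hist2h2be and Hist1h2br had no match in this window.

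The length of annotated transcript beyond the stem-loop differed between the members with most reads and the rest. Of the 10 members with the highest mean level, 8 had the element, with a median of 805 annotated bases after it (46 to 1861). In the 38 other members with the element the median was 49 bases. These are lengths in GENCODE M21, and the lengths implied by the authors' values equalled them in 36 of 62 members, were shorter in 21 and longer in 5. Among the shorter were Hist1h4d with 393 implied against 1138 annotated bases and Hist1h1e with 748 against 1930, so the authors' counting may not have covered the whole annotated tail of these genes.

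The 250 bases upstream of the annotated start are shown for 4 members that recur below: Hist1h4n and Hist1h1d, which passed the test at both later stages, Hist1h3e, which was absent from 1 G0 library, and Hist1h1c, which passed no test. They were read from RefSeq (build GRCm38.p6), which names these genes H4c18, H1f3, H3c6 and H1f2 in that order, and which matched 62 of the 70 members. For Hist1h1d the RefSeq start differs from that of GENCODE M21. Its stretch lies inside the GENCODE M21 gene (chr13:23553262-23560686) and is exonic there. Capitals mark CCAAT (or ATTGG, its other strand) and TATAAA (or TTTATA). The octamer ATTTGCAT (or ATGCAAAT), searched as well, has no match in these 4.
Hist1h4n, chr13:21832198-21832447, minus strand: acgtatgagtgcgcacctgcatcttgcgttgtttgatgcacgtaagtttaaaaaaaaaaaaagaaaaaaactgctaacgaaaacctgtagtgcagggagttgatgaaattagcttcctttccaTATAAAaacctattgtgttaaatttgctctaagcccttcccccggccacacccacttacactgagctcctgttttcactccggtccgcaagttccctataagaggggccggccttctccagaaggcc
Hist1h1d, chr13:23554782-23555031, plus strand: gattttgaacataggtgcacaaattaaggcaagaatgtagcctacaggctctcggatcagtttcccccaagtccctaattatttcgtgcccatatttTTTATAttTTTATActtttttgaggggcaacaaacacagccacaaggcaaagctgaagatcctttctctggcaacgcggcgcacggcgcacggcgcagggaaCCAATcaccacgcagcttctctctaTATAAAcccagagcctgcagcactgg
Hist1h3e, chr13:23562386-23562635, minus strand: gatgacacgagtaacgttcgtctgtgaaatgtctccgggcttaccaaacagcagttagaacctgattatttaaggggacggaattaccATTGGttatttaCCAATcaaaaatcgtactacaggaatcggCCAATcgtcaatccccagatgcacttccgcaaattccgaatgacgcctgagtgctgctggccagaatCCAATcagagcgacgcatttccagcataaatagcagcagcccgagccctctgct
Hist1h1c, chr13:23738557-23738806, plus strand: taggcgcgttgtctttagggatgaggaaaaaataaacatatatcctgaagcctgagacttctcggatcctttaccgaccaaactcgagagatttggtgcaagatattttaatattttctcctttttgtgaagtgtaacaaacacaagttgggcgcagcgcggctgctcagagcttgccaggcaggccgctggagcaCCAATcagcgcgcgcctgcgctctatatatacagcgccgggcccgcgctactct
CCAAT was present on either strand in 51 of the 62 member promoters (82.3%), against 34.5% of all 27025 promoters of this length. It was in 6 of 6 H1, 18 of 18 H2A, 16 of 16 H2B and 8 of 10 H3 promoters, but in 3 of 12 H4 promoters. TATAAA was in 29 of 62 (46.8%), against 12.97% of all promoters. The octamer was in 7 of 18 H2A and 6 of 16 H2B promoters, 13 of 62 members (20.97%) in all, against 1.61% of all promoters, and in 0 promoters of the other classes. Hist1h4m, a near copy of Hist1h4n, shared with it an unbroken run of all but 1 of the 250 bases.

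The libraries held 226030591 to 379767336 reads each (median 731494 to 1191576 per nucleus), of which 11946 to 40876 per library fell on members. Levels of genes are given as CPM on library sizes scaled by the trimmed mean of M-values (TMM), and summed histone levels as RPM, on library sizes as read. Where a gene has no reads, 3 reads serve as the limit, which is 0.00790 to 0.0133 CPM by library, and this covers counting error alone. Hepatocyte markers (10 of 10 with reads in each library) summed to 15848 to 21280 CPM in every library. Sums of other lists were far lower, at 14.52 to 37.03 CPM for 7 endothelial, 5.72 to 18.5 for 6 macrophage, 0.959 to 2.76 for 7 lymphocyte, 7.74 to 21.8 for 6 stellate, 0.233 to 1.17 for 5 cholangiocyte, 6.00 to 13.9 for 7 erythroid and 0.141 to 1.09 CPM for 6 neutrophil genes. Ms4a1, Lrat, Alas2 and Ngp had no reads in any library, and Clec4g, Col1a1, Krt19, S100a8, S100a9 and Elane none in at least 1. The endothelial sum was 37.03 and 22.2 CPM in the G0 libraries (perfusion, liver tissue) and 14.52 to 18.46 CPM in the 4 later ones. Its part in the stage differences was not tested.

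Summed over the 70 genes, clustered histone reads were lowest at G0 and highest at P7L in both preparations. They came to 67.2 and 52.9 RPM at G0 in the perfusion and liver tissue libraries. At G14.5 they came to 87.0 and 90.8 RPM, and at P7L 124.9 and 132.5 RPM. The 3 stages did not overlap. The P7L mean was 2.14 times the G0 mean and 1.45 times the G14.5 mean, and the G14.5 mean was 1.48 times the G0 mean. Within perfusion libraries the ratios were 1.86 for P7L over G0, 1.44 for P7L over G14.5 and 1.29 for G14.5 over G0, and within liver tissue libraries 2.51, 1.46 and 1.72 in that order. No p-value is given for a sum over these genes.

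**Figure D1:**
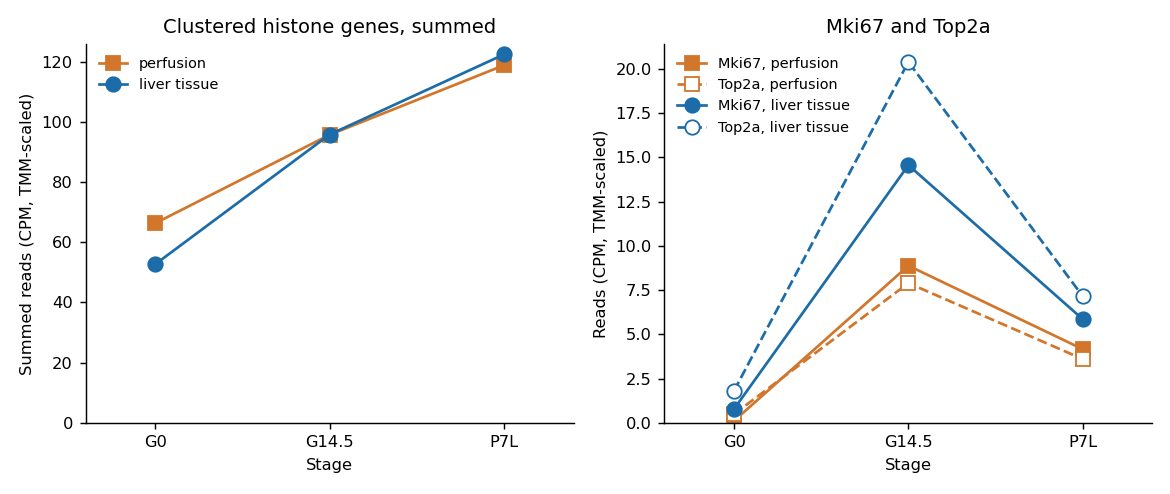
Left, summed reads of the 70 clustered histone genes in CPM on TMM-scaled library sizes, a scale that differs from the RPM above (y axis, starting at 0), at G0, G14.5 and P7L (x axis). Right, CPM of Mki67 (filled) and Top2a (open) in the same libraries, squares and orange for perfusion and circles and blue for liver tissue. Histone reads were highest at P7L, while both cycle genes were highest at G14.5.

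The order of stages differed from that of the proliferation genes. Mki67, a protein of dividing nuclei, had 0.111 and 0.781 CPM at G0, then 8.88 and 14.6 CPM (G14.5) and 4.16 and 5.86 CPM (P7L) in perfusion and liver tissue libraries. Top2a, a topoisomerase of S phase and mitosis, had 0.493 and 1.81 CPM at G0, then 7.90 and 20.4 CPM (G14.5) and 3.60 and 7.16 CPM (P7L). Both rose at G14.5 against G0, Mki67 by 5.07 ± 0.72 (log2, SE, adjusted p = 0.00690, edgeR) and Top2a by 3.72 ± 0.44 (adjusted p = 0.00348). Both also rose at P7L against G0 (3.89 ± 0.69, adjusted p = 0.0366, and 2.42 ± 0.42, adjusted p = 0.0347, edgeR), calls that Mki67 kept in 8 of 18 alternatives and Top2a in 6 of 18. Some of these alternatives left out nuclei by their Mki67 and Top2a reads, so a loss of these calls there was largely built in. At P7L against G14.5 the log2 differences were -1.18 for Mki67 (edgeR, adjusted p = 0.296) and -1.31 for Top2a (adjusted p = 0.0979), neither past the threshold.

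A few genes gave most of the histone reads. Hist1h2bc took 24.4% of the 160812 member reads, the top 4 genes (Hist1h2bc, Hist1h1c, Hist1h4d and Hist2h4) 65.7% and the top 8 genes 86.1%. H4 genes gave 37.2% of member reads, H2B genes 35.0%, H1 genes 23.1%, H2A genes 2.48% and H3 genes 2.22%.

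The class sums did not all separate the stages. H4 genes together had 19.2 and 16.2 RPM at G0, then 31.5 and 37.7 (G14.5) and 51.8 and 48.6 (P7L), perfusion before liver tissue. H2B genes had 25.1 and 18.3 at G0, then 30.4 and 29.3 (G14.5) and 39.8 and 52.3 (P7L). H1 genes had 20.6 and 16.7 at G0, then 20.2 and 18.7 (G14.5) and 27.9 and 25.2 (P7L). H4 and H2B sums kept the 3 stages apart, while H1 sums at G0 and G14.5 overlapped. H2A genes had 1.61 and 1.14 at G0, then 2.44 and 2.92 (G14.5) and 2.44 and 3.24 (P7L). H3 genes had 0.713 and 0.487 RPM at G0, then 2.36 and 2.29 (G14.5) and 2.93 and 3.17 (P7L). Both small classes were lowest at G0, and the H2A sums of the later stages overlapped.

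To compare genes with each other, the deposited length-scaled values were used, in which every nucleus has the same total over genes other than Alb, Apoa2 and Fabp1. Averaged over libraries, Hist1h4d had 11.5 of these units and Hist1h2bc 10.2. Next came Hist1h1c at 3.10, Hist1h4c at 2.57, Hist1h1e at 2.05, Hist2h4 at 1.78, Hist1h4i at 1.47 and Hist1h4h at 0.978. By class, H4 genes made up 49.6% of the length-scaled member total, H2B genes 29.7%, H1 genes 14.8%, H2A genes 3.90% and H3 genes 2.03%. In these values the 4 core classes, whose proteins form the nucleosome in equal numbers, were thus far from equal per length. An H4 gene and an H2B gene stood well above the rest, and H4 genes held 5 of these 8 places. Reads were found for 15 of 20 H2A and 10 of 12 H3 genes, against 12 of 13 H4 and 19 of 19 H2B genes. Genes without reads count as 0 here, and many members are close copies. The class shares may therefore depend on how reads were assigned.

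Of the 70 genes, 25 had enough reads for the test across libraries (4 H1, 5 H2A, 6 H2B, 2 H3 and 8 H4). The filter is edgeR's filterByExpr together with reads in at least 5% of nuclei of at least 2 libraries, so genes of low level everywhere are left out. At G14.5 against G0, 7 of the 25 rose and 0 fell (edgeR quasi-likelihood test, adjusted p under 0.05), where 6.93% of all 15015 genes tested rose and 5.01% fell. The 7 were the H4 genes Hist1h4n and Hist1h4i, the H1 gene Hist1h1d, the H2A genes Hist1h2ao and Hist1h2ap, the H2B gene Hist1h2br and the H3 gene Hist1h3e. Of these, only Hist1h4i had reads in at least 5% of nuclei of both G0 libraries. The others were below 5% in both G0 libraries and passed the filter through later libraries alone. The median log2 fold change of the 25 was 1.90, against -0.011 over all genes tested, and 15 had an unadjusted p under 0.05, all of them higher at G14.5. DESeq2 called 7 members and limma-voom 8, and of the 7 edgeR calls DESeq2 shared Hist1h4n, Hist1h4i, Hist1h1d and Hist1h3e, and limma-voom all 7. Without 1 or the other G14.5 library the count was 1, Hist1h4n, and without the nuclei with Mki67 or Top2a reads it was also 1, again Hist1h4n.

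Hist1h4n, an H4 gene (ENSMUSG00000069305.3, chr13:21831767-21832196), had the smallest p of the 25. It had 0.400 and 0.697 CPM in the G14.5 perfusion and liver tissue libraries, against 0.0199 and 0.0176 CPM in the G0 libraries. In reads this was 138 and 175 at G14.5 against 5 and 4 at G0. The libraries of the 2 stages lay far apart, and the log2 fold change was 4.81 ± 0.73 (SE, adjusted p = 0.00836). It was seen in 8.31% and 8.04% of G14.5 nuclei against 1.09% and 0.397% of G0 nuclei. So even at its higher level it was read in a small share of nuclei.

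Hist1h1d, a linker histone gene (chr13:23553262-23560686), had 1.08 and 0.721 CPM at G14.5 (perfusion, liver tissue) against 0.143 and 0.0353 CPM at G0. Its log2 fold change was 3.48 ± 0.76 (adjusted p = 0.0296). The H3 gene Hist1h3e (chr13:23561534-23562369) had 221 and 220 reads at G14.5, or 0.640 and 0.877 CPM, against 0 and 16 reads at G0, or 0 and 0.0706 CPM. In the G0 perfusion library 0 of 184 nuclei had a read of it, which by the limit of 3 counts allows a share of up to 1.63%, and the fitted log2 change was 4.88 ± 1.25 (adjusted p = 0.0481). In both genes every G14.5 value exceeded every G0 value.

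Hist1h4i, an H4 gene with a higher level (chr13:22040636-22041362), had 3.19 and 4.54 CPM at G14.5 in perfusion and liver tissue libraries, against 0.946 and 0.790 CPM at G0. It rose by 2.12 ± 0.52 (log2, SE, adjusted p = 0.0430). It was read in 20.9% and 26.3% of G14.5 nuclei against 6.52% and 5.95% of G0 nuclei. Of the 7 genes that rose, it was thus the most widely seen.

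Hist1h2ao had 0.168 and 0.339 CPM at G14.5 against 0.0358 and 0.0485 CPM at G0 (2.52 ± 0.57, adjusted p = 0.0313). Hist1h2ap had 0.290 and 0.470 CPM at G14.5 against 0.0358 and 0.124 CPM at G0 (2.41 ± 0.59, adjusted p = 0.0428). Hist1h2br had 0.180 and 0.167 CPM at G14.5 against 0.0239 and 0.0397 CPM at G0 (2.43 ± 0.60, adjusted p = 0.0417). These 3 genes are close copies of others: 93.5% of the 50-base stretches of Hist1h2ao also occur in Hist1h2ap, and 88.7% of those of Hist1h2br in Hist1h2bq, so the split of reads among copies is uncertain. The same limit holds for Hist1h4n, with 83.2% of its stretches in Hist1h4m, and for Hist1h3e, with 63.2% in Hist1h3f.

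The most abundant genes did not pass the edgeR test at G14.5, and of them DESeq2 called Hist2h4. Hist1h2bc, the H2B gene with most reads (chr13:23684199-23692908), had 27.7 and 16.2 CPM at G14.5 against 11.6 and 12.9 CPM at G0 (0.83 ± 0.34, adjusted p = 0.161). Hist1h4d had 13.7 and 14.2 CPM against 9.28 and 8.46 CPM (0.66 ± 0.30, adjusted p = 0.203). Hist2h4, an H4 gene of the chromosome 3 cluster (chr3:96261682-96263311), had 8.95 and 13.2 CPM against 5.84 and 3.93 CPM (1.15 ± 0.40, adjusted p = 0.111). In these 3 genes both G14.5 libraries were higher than both G0 libraries, as in 21.6% of all genes with reads. Hist1h1c, a linker histone gene with a high level in resting cells, had 13.6 and 14.2 CPM at G14.5 against 14.46 and 13.4 CPM at G0 (-0.0030 ± 0.28, adjusted p = 0.996). Its stage groups overlapped.

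Other members of higher level were spread widely. Hist1h4c had 3.92 and 2.80 CPM at G14.5 against 1.51 and 1.90 CPM at G0 (0.92 ± 0.56, adjusted p = 0.321), and Hist1h4h 1.35 and 1.65 CPM against 0.421 and 0.362 CPM (1.94 ± 0.62, adjusted p = 0.0856). Hist1h4m, the near copy of Hist1h4n, had 0.716 and 1.00 CPM against 0.0358 and 0.185 CPM (3.10 ± 0.89, adjusted p = 0.0650). Hist2h2ac, the H2A gene with most CPM, had 0.704 and 0.877 CPM at G14.5 against 0.807 and 0.357 CPM at G0, and Hist1h2ae had 0.820 and 0.789 CPM against 0.342 and 0.278 CPM. The H3 gene Hist2h3c2 had 1.25 and 0.733 CPM against 0.346 and 0.185 CPM (1.90 ± 0.68, adjusted p = 0.114). Of these 6, all but Hist2h2ac had G14.5 libraries above the G0 libraries, an order found in 21.6% of all genes with reads. None passed the edgeR test, while DESeq2 called Hist1h4h and Hist1h4m and limma-voom called Hist1h4m.

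Single nuclei weighed heavily in a few genes. Hist2h2be, an H2B gene with a long polyadenylated form, had 0.594 and 4.43 CPM at G14.5 against 0.843 and 0.984 CPM at G0. In the G14.5 liver tissue library 752 of its 1111 reads came from 1 nucleus, and without that nucleus its level there was 1.37 RPM, against 4.20 with it. Hist1h4j had 1.77 and 0.387 CPM at G14.5 against 0 and 0.106 CPM at G0, and 53.1% of all its reads lay in 1 G14.5 perfusion nucleus. Hist1h4j was below the filter and was chosen after its values were seen.

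The remaining named H1 and H2B genes did not pass the test at either later stage. Hist1h2be, an H2B gene (chr13:23583670-23621124), had 11.9 and 3.99 CPM at G0, then 3.82 and 8.81 CPM (G14.5) and 8.13 and 8.32 CPM (P7L), perfusion before liver tissue, with a log2 difference of -0.29 ± 0.67 for G14.5 against G0 (adjusted p = 0.814). In the G0 perfusion library 1716 of its 3004 reads came from 1 nucleus. The H1 gene Hist1h1e had 5.68 and 2.78 CPM at G0, then 5.72 and 3.93 CPM (G14.5) and 8.01 and 4.04 CPM (P7L), with a log2 difference of 0.26 ± 0.42 for G14.5 against G0 (adjusted p = 0.728). Hist1h1b, another H1 gene, had 0.0795 and 0.340 CPM at G0, then 1.59 and 0.765 CPM (G14.5) and 1.69 and 0.383 CPM (P7L). Stages overlapped in Hist1h2be and Hist1h1e, whereas Hist1h1b was lower in both G0 libraries than in the later ones (2.26 ± 1.07 for G14.5 against G0, adjusted p = 0.215).

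**Figure D2:**
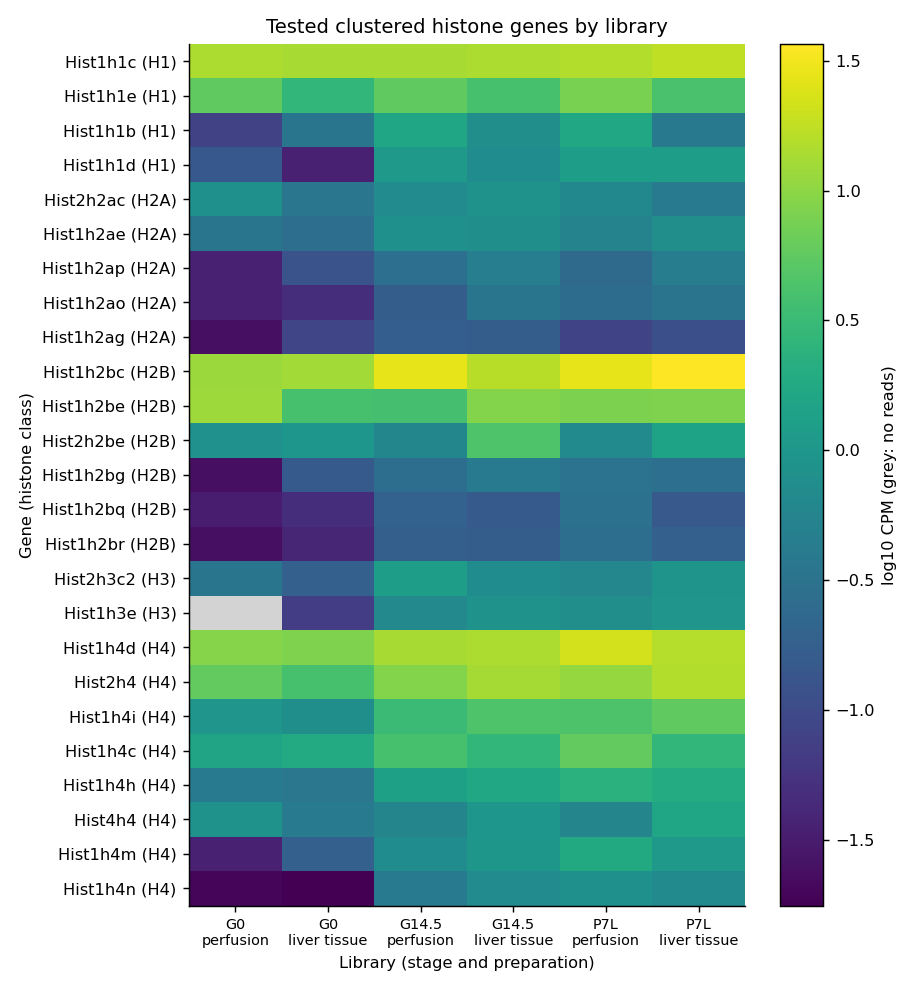
Levels of the 25 tested genes (rows, grouped by histone class) in the 6 libraries (columns, by stage and preparation), as log10 CPM on the colour scale, with grey for no reads. Hist1h1c stayed at 13.4 to 17.5 CPM in all 6 libraries, while Hist1h4n, Hist1h3e and Hist1h1d were lowest in both G0 libraries.

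Over all 62 members with reads, tested or not, both G14.5 libraries were above both G0 libraries in 38 (61.3%), against 21.6% of the 24953 genes with reads. Both were below in 2 (3.23%, Hist1h2ak and Hist1h3c), against 23.3% of all genes. These counts are a description without a test, and with 2 libraries a stage the smallest p of an exact two-sided permutation test is 0.333.

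At P7L against G0, 2 of the 25 genes rose, Hist1h4n and Hist1h1d, and 0 fell, where 1.56% of all genes rose and 1.36% fell (edgeR, adjusted p under 0.05). Hist1h4n had 0.814 and 0.665 CPM at P7L against 0.0199 and 0.0176 CPM at G0, a log2 change of 5.27 ± 0.74 (adjusted p = 0.0223). Hist1h1d had 1.28 and 1.26 CPM at P7L against 0.143 and 0.0353 CPM at G0, a log2 change of 4.05 ± 0.79 (adjusted p = 0.0460). Both P7L libraries lay well above both G0 libraries in each gene. Both genes had reads in under 5% of nuclei of each G0 library, so they passed the filter through later libraries alone. The median log2 change of the 25 genes was 1.61, against 0.0070 over all genes, and 15 had an unadjusted p under 0.05, all higher at P7L. The count was 0 without the P7L perfusion library, 1 without the P7L liver tissue library (Hist1h4n) and 4 without the G14.5 perfusion library, and DESeq2 called 9.

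Several genes had changes of like size that missed the threshold in the edgeR test. Among those given here, Hist1h4i, Hist1h3e and Hist1h4m were called by both limma-voom and DESeq2. Hist1h2ao had 0.265 and 0.329 CPM at P7L against 0.0358 and 0.0485 CPM at G0 (2.82 ± 0.57, adjusted p = 0.0513), and Hist1h4i had 4.32 and 5.68 CPM against 0.946 and 0.790 CPM (2.50 ± 0.53, adjusted p = 0.0578). Hist1h2br had 0.276 and 0.186 CPM at P7L against 0.0239 and 0.0397 CPM at G0 (2.84 ± 0.60, adjusted p = 0.0578), and Hist1h3e 0.759 and 0.962 CPM against 0 and 0.0706 CPM (5.08 ± 1.26, adjusted p = 0.0817). Hist1h4m had 1.84 and 1.11 CPM at P7L against 0.0358 and 0.185 CPM at G0 (4.01 ± 0.94, adjusted p = 0.0743). In all of these both P7L libraries were above both G0 libraries, an order found in 22.1% of all genes with reads. The genes were named by p or level, so this adds no separate support.

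Among the abundant genes, Hist1h2bc had 27.6 and 36.7 CPM at P7L against 11.6 and 12.9 CPM at G0 (1.39 ± 0.34, adjusted p = 0.0803). Hist1h4d had 22.0 and 15.6 CPM against 9.28 and 8.46 CPM (1.07 ± 0.31, adjusted p = 0.109), and Hist2h4 had 11.1 and 15.0 CPM against 5.84 and 3.93 CPM (1.39 ± 0.40, adjusted p = 0.113). Hist1h1c had 15.4 and 17.5 CPM against 14.46 and 13.4 CPM (0.24 ± 0.28, adjusted p = 0.671). Hist1h2bc, Hist1h4d and Hist2h4 had the largest differences in CPM between P7L and G0 of all members, and none of them passed the edgeR test, while DESeq2 called all 3 and limma-voom 0 of them. Both P7L libraries were above both G0 libraries in 39 of the 62 members (62.9%), against 22.1% of all genes with reads, and below them in 2 (3.23%), against 23.1%. The comparisons of G14.5 and of P7L share the G0 libraries.

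**Figure D3:**
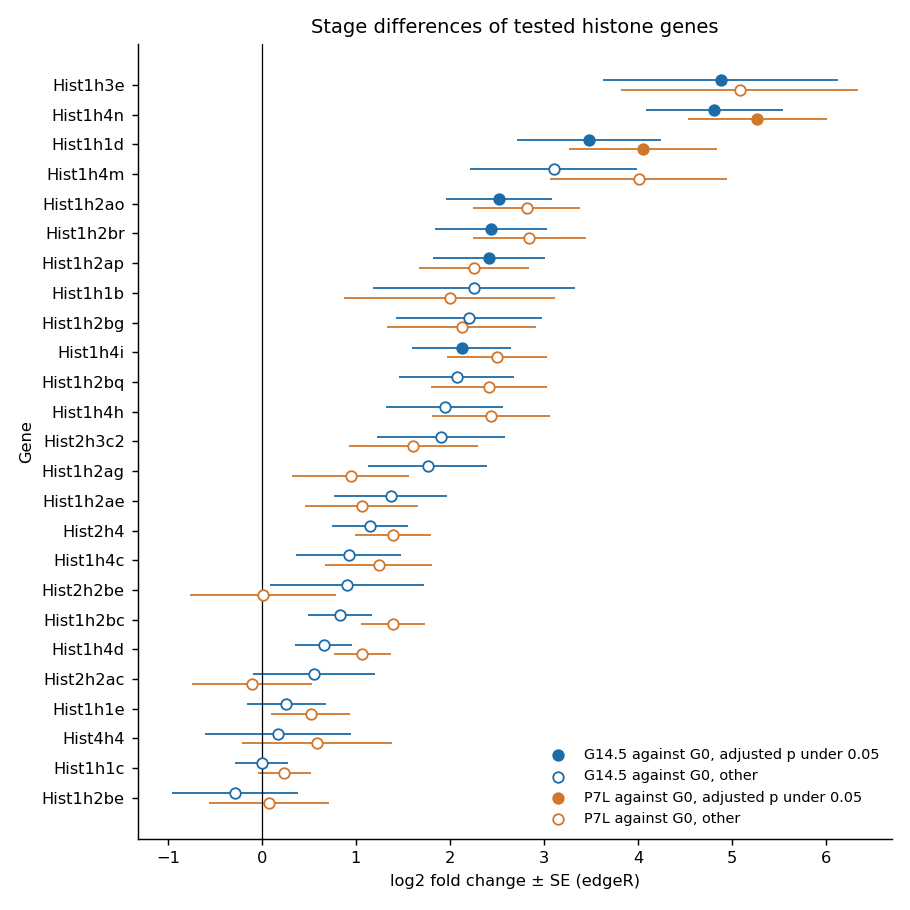
Log2 fold change with its SE (x axis) of each of the 25 tested genes (rows) for G14.5 against G0 (blue) and P7L against G0 (orange), filled where the edgeR adjusted p is under 0.05. Most points lie right of 0, with 7 filled for G14.5 and 2 for P7L, and both comparisons use the same G0 libraries.

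At P7L against G14.5, 0 of the 25 genes passed the edgeR test, where 4.2% of all genes rose and 5.06% fell. None had an unadjusted p under 0.05, and limma-voom and DESeq2 also called 0. The median log2 change was 0.30, against -0.0024 over all genes tested. Hist1h2bc had the smallest p, with 27.6 and 36.7 CPM at P7L against 27.7 and 16.2 CPM at G14.5 (0.57 ± 0.34, adjusted p = 0.377). Next were Hist1h2ag, an H2A gene with 0.0843 and 0.114 CPM at P7L against 0.171 and 0.167 CPM at G14.5 (-0.82 ± 0.59, adjusted p = 0.467), and Hist1h4d with 22.0 and 15.6 CPM against 13.7 and 14.2 CPM (0.41 ± 0.30, adjusted p = 0.477). Of the 62 members with reads, 12 (19.4%) were higher in both P7L libraries than in both G14.5 libraries, against 22.9% of all genes, and 11 (17.7%) lower, against 22.1%. The higher sum at P7L thus came with no excess of such members, though the 12 included the abundant Hist1h1c and Hist1h4d. Of the 25 tested genes 17 had a positive log2 change, against 49.8% of all genes tested. These counts are on TMM library sizes, where the sums were 118.8 and 122.4 CPM at P7L against 95.7 and 95.8 CPM at G14.5. In RPM, the ratio of the sums without Hist1h2bc was 1.37.

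Of the 7 genes that rose at G14.5, 4 lay close together, but of these Hist1h2ao kept its call in 6 of 17 alternatives, Hist1h2ap in 3 of 18 and Hist1h2br in 4 of 15, and DESeq2 called Hist1h4n alone of the 4. Hist1h4n, Hist1h2ao, Hist1h2ap and Hist1h2br belong to a block of 6 genes within 30.9 kb (chr13:21806612-21837530), in which Hist1h2bq, Hist1h2ao and Hist1h4m are mirrored by Hist1h2br, Hist1h2ap and Hist1h4n. All 6 genes of the block were tested. Since reads cannot be split safely within a mirrored pair, each pair was also summed. Hist1h4n and Hist1h4m together had 0.0564 and 0.204 RPM at G0 (perfusion, liver tissue), then 1.01 and 1.61 (G14.5) and 2.79 and 1.92 (P7L). Hist1h2ao and Hist1h2ap together had 0.0725 and 0.173 at G0, then 0.416 and 0.767 (G14.5) and 0.535 and 0.848 (P7L). Hist1h2bq and Hist1h2br together had 0.0564 and 0.0885 at G0, then 0.342 and 0.302 (G14.5) and 0.608 and 0.364 (P7L). In all 3 pairs the later libraries were above the G0 libraries, whatever the split of reads within a pair.

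Hist1 genes lie in separate stretches of chromosome 13. The 24 genes of the stretch that holds the block (chr13:21715763-22043676) summed to 2.01 and 2.16 RPM at G0, then 8.74 and 9.08 (G14.5) and 11.7 and 11.5 (P7L). The 31 genes of the other large stretch (chr13:23531050-23934851) summed to 56.4 and 44.8 at G0, then 67.2 and 62.4 (G14.5) and 98.9 and 99.9 (P7L). Both stretches kept the order of the stages, the first on a far lower base. A difference between the stretches was not tested.

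Nuclei had reads of more different histone genes at the later stages. At least 1 read of any member was found in 89.7% of perfusion nuclei (95% exact binomial interval 84.3 to 93.7%) and 92.1% of liver tissue nuclei (88.0 to 95.1%) at G0. At G14.5 the shares were 98.7% (96.6 to 99.6%) and 97.8% (94.9 to 99.3%), and at P7L 100% (98.8 to 100%) and 99.7% (98.2 to 100%). These intervals cover counting error only. The median nucleus had reads of 2 members in both G0 libraries, 5 in both G14.5 libraries and 6 in both P7L libraries. Nuclei with 5 or more members made up 14.7% and 9.92% at G0, then 50.2% and 51.8% (G14.5) and 78.5% and 71.4% (P7L), perfusion before liver tissue.

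Depth differed between libraries, so each nucleus was also thinned to 250000 reads, and 35 nuclei below that depth were set aside. Of these 3 and 15 came from the G0 libraries (perfusion, liver tissue), 1 and 0 from G14.5 and 2 and 14 from P7L. The medians of thinned nuclei were 1 and 2 members at G0, then 3 and 3 (G14.5) and 5 and 5 (P7L), perfusion before liver tissue. Thinned nuclei with 5 or more members made up 2.76% and 4.64% at G0, then 25.3% and 32.1% (G14.5) and 55.7% and 55.8% (P7L). The order of the stages was the same with and without thinning. All genes together showed the same order, with a median of 5376 and 5657 genes per thinned nucleus at G0, then 6047 and 6006 (G14.5) and 6752 and 6700 (P7L), and the part of this in the histone counts was not tested.

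**Figure D4:**
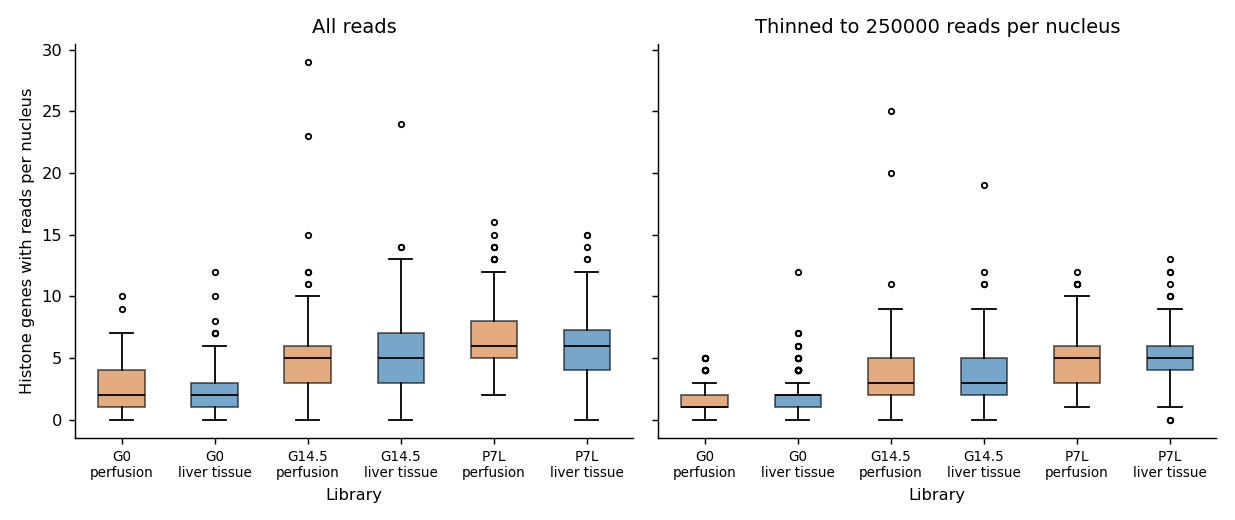
Number of clustered histone genes with reads per nucleus (y axis) in each library (x axis), with all reads on the left and after thinning to 250000 reads per nucleus on the right. Boxes give the median and quartiles, whiskers 1.5 times the interquartile range and circles single nuclei. The medians are 2, 5 and 6 genes at G0, G14.5 and P7L with all reads.

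Hist1h2bc was the most widely read member, in 53.8% and 52.4% of nuclei at G0, then 71.8% and 71.4% (G14.5) and 81.5% and 89.3% (P7L), perfusion before liver tissue. Hist1h4d was in 32.1% and 38.5% of nuclei at G0, then 57.1% and 61.2% (G14.5) and 81.9% and 65.9% (P7L). Hist1h1c was read in 39.7% and 36.9% of nuclei at G0, then 50.5% and 49.6% (G14.5) and 66.8% and 70.8% (P7L). The share of nuclei with Hist1h1c thus differed between stages more than its CPM, which ran from 13.4 to 17.5. These shares are from nuclei before thinning, and all genes together were also read more widely at the later stages. Hist1h1t and Hist1h2ba, the testis-specific H1 and H2B genes, were read in 2 nuclei each of 1567.

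Histone reads were not higher throughout in nuclei with reads of Mki67 or Top2a. Such nuclei, called marked here, made up 20.7% and 19.8% of nuclei at G0, then 45.8% and 52.2% (G14.5) and 37.9% and 35.1% (P7L), perfusion before liver tissue. Member reads came to 70.6 RPM in the marked nuclei against 66.2 in the other nuclei of the G0 perfusion library, and 46.1 against 54.9 in the G0 liver tissue library. At G14.5 they came to 83.9 in marked against 90.0 in other nuclei (perfusion) and 98.3 against 80.9 (liver tissue). At P7L they came to 111.8 in marked against 134.0 in other nuclei (perfusion) and 113.5 against 145.4 (liver tissue). The marked nuclei were higher in 2 of 6 libraries, and the ratio ran from 0.781 to 1.22 with a median of 0.886. After thinning the mark was set anew on the thinned reads, which left 313 marked nuclei against 564 before. These were higher in 4 of 6 libraries (0.907 to 1.21), a comparison that changes both the depth and the nuclei called marked. Before thinning marked nuclei were deeper, at a median of 1103679 reads against 901536.

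With a stricter mark of 10 or more reads of both genes together, the 4 later libraries gave higher values in marked nuclei when all reads were used. The values were 112.6 RPM in 34 marked nuclei against 83.3 in the others (G14.5 perfusion) and 102.3 in 44 against 87.2 (G14.5 liver tissue). At P7L they were 126.5 in 13 marked nuclei against 124.8 in the others (perfusion) and 159.9 in 16 against 130.7 (liver tissue). With all reads the ratio in these 4 libraries ran up to 1.35, and at G0 just 1 and 2 nuclei met this mark. In the G14.5 perfusion library 1 marked nucleus gave 1519 and another 720 of the 5375 member reads of marked nuclei. The summed value there leaned on these nuclei, and medians per nucleus were 74.9 RPM in marked against 64.1 in other nuclei. After thinning fewer nuclei met this mark and the values spread more widely. They were 232.5 RPM in 15 marked nuclei against 88.7 in the others (G14.5 perfusion, ratio 2.62) and 105.3 in 24 against 93.8 (G14.5 liver tissue). The thinned medians per nucleus of the G14.5 perfusion library were 72.0 RPM in marked and 68.0 in other nuclei. At P7L thinned marked nuclei had 120.7 RPM in 6 nuclei against 132.5 in the others (perfusion, ratio 0.911) and 151.6 in 9 against 143.3 (liver tissue), so the direction in the P7L perfusion library depended on thinning.

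**Figure D5:**
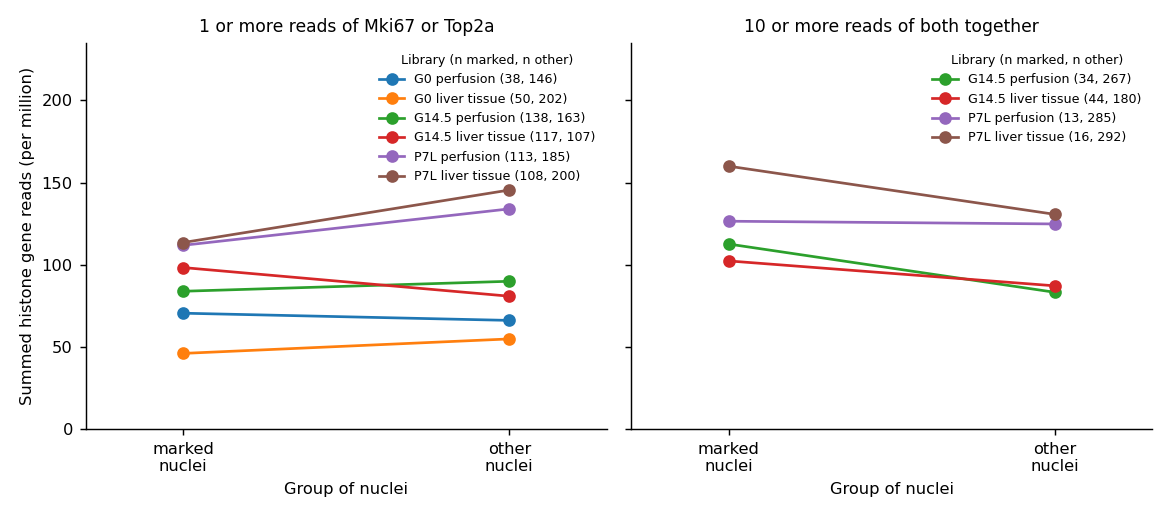
Summed member reads in RPM (y axis, starting at 0) in marked and other nuclei (x axis), 1 line per library, for 1 or more reads of Mki67 or Top2a (left, 6 libraries) and for 10 or more reads of both together (right, 4 libraries). Lines rise to the right in 4 of 6 libraries on the left and fall to the right in all 4 on the right.

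Gene by gene, 0 of 31 members passed the edgeR test between marked and other nuclei within libraries, where 0.0% of all 16038 genes were called in either direction. Of the members 1 had an unadjusted p under 0.05, and limma-voom and DESeq2 called 0 members and 1 and 126 genes in all. That member was Hist1h1e, a linker histone gene, with a log2 difference of -1.08 ± 0.48 for marked minus other nuclei (SE, edgeR adjusted p = 0.981). Hist1h4h was lower in marked nuclei of 6 of 6 libraries (-1.16 ± 0.52, adjusted p = 0.981). Hist1h1b, an H1 gene tied to dividing cells, was higher in marked nuclei of 6 of 6 libraries (1.04 ± 0.49, adjusted p = 0.981). It was read in 36 of 564 marked nuclei (6.38%) against 51 of 1003 other nuclei (5.08%), all stages pooled. This share was lower in marked nuclei of the later perfusion libraries (G14.5 7.25% against 8.59%, P7L 8.85% against 9.73%). It was higher in those of the later liver tissue libraries (5.98% against 5.61%, 6.48% against 5.0%). In each G0 library 1 marked nucleus had its reads, and 1 marked G14.5 perfusion nucleus held 122 of them. None of these log2 differences passed the test. In the same fit 0 of 40 cycle genes passed (11 with an unadjusted p under 0.05, 9 called by DESeq2, 0 by limma-voom), with a median log2 difference of 0.94, against -0.34 for the 31 histone genes. Among these cycle genes Ect2 differed by 1.46 ± 0.27 (adjusted p = 0.706) and Cenpf by 3.85 ± 0.82 (adjusted p = 0.792). The endothelial marker sum reached 95.8 CPM in the marked nuclei of 1 library against at most 20.9 CPM in other nuclei, and its part was not tested.

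Nuclei with very many histone genes were rare. Across libraries 104 nuclei had reads of 10 or more members, of which 50 (48.1%) were marked, against 36.0% of all nuclei. The G0 libraries gave just 1 and 2 of the 104 (perfusion, liver tissue) and had the lowest marked shares, 20.7% and 19.8%. At G14.5, 8 of 138 marked and 4 of 163 other perfusion nuclei were among them, and 8 of 117 and 5 of 107 from liver tissue. At P7L these were 18 of 113 and 25 of 185, and 14 of 108 and 19 of 200. Marked nuclei were also deeper, and the part of stage and depth was not tested. Above 20 members there were 3 nuclei, all at G14.5. The first, from the perfusion library, had 29 members and 720 member reads, led by Hist1h1b with 122, together with 193 Mki67 and 148 Top2a reads. It had reads of 27 of 42 S phase and mitosis genes, against a median of 8 in all nuclei. The second, from liver tissue, had 24 members, 497 member reads and 30 of the 42 cycle genes. The third, from perfusion, had 23 members and 1519 member reads, 1086 of them of Hist1h2bc, with 386 Mki67 reads, 1 Top2a read and 10 cycle genes. High cycle gene counts did not always go with many members. The 25 nuclei with 20 or more cycle genes had 2 to 29 members, with a median of 10. One G14.5 liver tissue nucleus with 34 cycle genes, 187 Mki67 and 474 Top2a reads had 4 histone reads from 2 members.

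The preparation made no difference that passed the test. Between perfusion and liver tissue libraries 0 of 25 members were called by edgeR, limma-voom or DESeq2, where edgeR called 0.0% of all genes in either direction, and 1 member had an unadjusted p under 0.05. That gene, Hist1h1e, had 5.68, 5.72 and 8.01 CPM in the perfusion libraries of G0, G14.5 and P7L against 2.78, 3.93 and 4.04 CPM in the liver tissue libraries (0.85 ± 0.35, adjusted p = 0.971). The log2 difference for perfusion minus liver tissue was -1.08 ± 0.46 for Hist1h2ap and -1.40 ± 0.67 for Hist2h2be (adjusted p = 0.971 for each). Hist1h1e shares exonic bases with Hist1h2be on the same strand in the annotation, so reads there are uncertain between these genes.

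Genes that work with histones were taken as context. Of 37 tested S phase and mitosis genes 7 rose and 0 fell at G14.5 against G0 (median log2 change 1.37), namely Cdc45, Mcm2, Mcm6, Bub1, Tpx2, Ect2 and Cenpe, the last of which turned to -0.68 without the marked nuclei. Mcm2, a subunit of the replicative helicase, rose by 4.80 ± 0.81 (adjusted p = 0.0126, edgeR) and Mcm6, another subunit, by 2.86 ± 0.46 (adjusted p = 0.0103). At P7L against G0 Mcm2 and Tpx2 rose and E2f8, a repressor of cycle genes, fell, with a median of 1.23. E2f8 had 1.56 and 1.19 CPM at P7L against 7.68 and 6.17 CPM at G0 (-2.33 ± 0.44, adjusted p = 0.0421), and it also fell against G14.5 (-2.34 ± 0.44, adjusted p = 0.0187). At G14.5 against G0, 7 of 37 cycle genes and 7 of 25 clustered histone genes were thus called higher, against 6.93% of all genes tested. The cycle gene calls were kept in 8 (Bub1, Cenpe) to 16 (Mcm6) of 18 alternatives. Those of histone genes ranged from 3 (Hist1h2ap) to 16 (Hist1h4n) of 18, and all but Hist1h4i passed the filter through later libraries alone.

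Histone variants made outside S phase were taken as a second list. Of 10 tested variants 1 rose at G14.5 against G0, H2afx, the variant phosphorylated at DNA breaks, with 2.59 and 2.91 CPM at G14.5 against 0.0994 and 0.331 CPM at G0 (3.86 ± 0.73, adjusted p = 0.0178). The median of the 10 was 0.21, against 1.90 for the clustered genes. H2afz, a variant at promoters, had 7.52 and 9.66 CPM at G14.5 against 4.15 and 5.50 CPM at G0 (0.83 ± 0.38, adjusted p = 0.192). At P7L 0 of 10 variants passed the edgeR test against G0 (3 with an unadjusted p under 0.05, 3 called by DESeq2, 1 by limma-voom) or against G14.5 (0 in each of these). H2afx mRNA, like the clustered ones, is known to exist in a stem-loop form.

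Of 13 tested genes for histone mRNA transcription and processing 0 passed the edgeR test in any of the 3 stage comparisons, 0 had an unadjusted p under 0.05, and DESeq2 and limma-voom called 0, with median changes of -0.28 for G14.5 against G0 and -0.36 for P7L against G0. Slbp, the stem-loop binding protein, had 14.4 and 17.2 CPM at P7L against 27.9 and 23.5 CPM at G14.5 (-0.66 ± 0.42, adjusted p = 0.401). Npat, the coactivator of histone gene clusters, had 26.9 and 16.6 CPM at G14.5 against 41.1 and 23.8 CPM at G0 (-0.57 ± 0.32, adjusted p = 0.286). Among 17 tested histone chaperones Chaf1a, the large subunit of chromatin assembly factor 1, rose at G14.5 with 1.35 and 5.58 CPM against 0.0358 and 0.234 CPM at G0 (4.78 ± 0.85, adjusted p = 0.0149), and the median of the list was -0.06. At P7L 0 of the 17 passed the edgeR test against G0 (4 with an unadjusted p under 0.05, 2 called by DESeq2, 1 by limma-voom) or against G14.5 (3, 3 and 0). Chaf1a was thus the 1 chaperone called at G14.5.

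H2A and H2B genes often lie head to head and share the sequence between their starts. Within 1000 bases, 14 such H2A and H2B pairs were found, 12 with reads in both genes. Per length the H2B gene was higher in 3 of the 12, and the higher gene exceeded the lower by 1.26 to 178 times, with a median of 2.33. The widest gap was in the pair with the most reads, where Hist1h2bc averaged 10.2 length-scaled units and Hist1h2ac, whose start is 250 bases away, 0.0572. In the chromosome 3 pair Hist2h2ac averaged 0.360 units and Hist2h2be 0.162. By reads the order was the other way in that pair (1081 against 2391) and in Hist1h2an and Hist1h2bp (49 against 145). For these the order per length rests on the lengths used. Some pairs had few reads, such as 20 for the pseudogene Hist1h2aj and 7 for Hist1h2bm. Hist1h2ac has 2482 annotated bases against 476 implied by the authors' values, so its annotated tail may not have been counted in full. In these counts the abundance of Hist1h2bc was thus not shared by its neighbour.

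The 8 members without reads were Hist1h2aa, Hist2h2ab, Hist2h2aa1, Hist2h2aa2, Hist1h4b, Hist2h3b, Hist3h2a and Hist2h3c1. In the annotation 7 of them, all but Hist1h2aa, share exonic bases with another gene, against 4 of the 62 members with reads. They also resemble other members, with a median of 87.9% of their 50-base stretches found elsewhere in the genes, against 43.2% for the 25 tested genes and 57.0% for the rest with reads. A value of 0 for them does not show that they were silent.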

How the data were processed

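Nuclei of 6 liver libraries, 1 per stage and preparation, were read with Smart-seq3xpress. The deposited read counts per gene and nucleus are the authors' own. Their processing notes list the build GRCm38 (mm10) and the programs featureCounts (version 1.5.3), HISAT2 (version 2.1.0) and Trimmomatic (version 0.39), with no settings; strand, multimapping and annotation release are not given in the sources used here. The authors' second table holds TPM-like values, which by their values are counts per gene length, scaled to 1 total in each nucleus without Alb, Apoa2 and Fabp1; lengths recovered from them came out whole within 0.05 bases for 62 of 62 members and equalled the GENCODE M21 exonic length for 36 (21 were shorter, 5 longer). Reads of 92 spike-in rows were all 0 and these rows were left out. Coordinates are GENCODE M21 on GRCm38, except those of the upstream stretches (RefSeq), and all 70 members matched GENCODE M21.

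Counts were summed per library, since nuclei are not replicates, and all genes that passed edgeR's filterByExpr and had reads in at least 5% of nuclei of at least 2 libraries (15015) were fitted with edgeR 4.0.16 (R 4.3.3), quasi-likelihood, TMM, stage and preparation as terms, 2 residual degrees of freedom, Benjamini-Hochberg adjustment over all tested genes, threshold 0.05, two-sided. Each stage has 1 library of each preparation, per the labels, so the preparation serves as the replicate block. Marked and other nuclei were summed within each library and fitted with library as a block (16038 genes, without Mki67 and Top2a). Both fits were tested on simulated counts. Alternatives used limma 3.58.1 (voom) and DESeq2 1.42.0.

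Members and lists were chosen with earlier results of these data known. Named genes were all members called, the 10 with the highest mean CPM and the 10 in most nuclei, the 2 highest of each class, the 3 with the smallest p in each comparison, and up to 4 genes of each context list per comparison. Depth was 226030591 to 379767336 reads per library. Nuclei carry numbers and no cell barcodes, so sharing of barcodes between libraries was not examined.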

Additional observations from a re-analysis of the deposited data

Results flagged for a closer look

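Hist1h2be, an H2B gene (chr13:23583670-23621124), went opposite ways in the preparations at G14.5 against G0. In perfusion libraries it had 3.82 CPM at G14.5 against 11.9 CPM at G0, a log2 difference of -1.64, and in liver tissue libraries 8.81 CPM at G14.5 against 3.99 CPM at G0, a log2 difference of 1.14. With 1 library per stage and preparation this difference between preparations was not tested. In the G0 perfusion library 1716 of its 3004 reads came from 1 nucleus, and without that nucleus its level there was 5.23 RPM, against 12.1 with it.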

How the results depend on the processing

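Calls of single members depended on the processing, while directions did not: of 158 repeats of the called members under alternatives, 83 kept the call, 75 lost it and 0 reversed. Hist1h4n kept it in 16 of 18 (G14.5 against G0, adjusted p 0.000347 to 0.122) and 13 of 18 (P7L against G0). At G14.5 Hist1h1d kept it in 11, Hist1h4i and Hist1h3e in 10 and Hist1h2ap in 3 of 18, Hist1h2ao in 6 of 17 and Hist1h2br in 4 of 15, and at P7L Hist1h1d kept it in 10 of 18. The count at G14.5 against G0 (7) was 1 with filterByExpr alone, 2 with no filter, 4 after thinning, 1 without marked nuclei, 4 without nuclei with 10 or more Mki67 and Top2a reads (chosen after seeing the data), 1 with scaled values at pseudocount 1, and 1 to 5 on leaving out a library. The count at P7L against G0 (2) was 0 with filterByExpr alone, with no filter and with scaled values at either pseudocount, 1 without marked nuclei, 5 with limma-voom, 9 with DESeq2, and 0 to 4 on leaving out a library. With no replicate block, which drops the preparation or library, the counts were 5, 5, 0, 0 and 0 in the 5 comparisons. Leaving out a library leaves a stage with 1 library, assumed to vary like the others. Library size alone in place of TMM moved the median of all genes by -0.13 (G14.5 against G0) and 0.20 (P7L against G14.5) and called 7 and 3 members against G0.

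The ratio of summed reads at P7L over G14.5 (1.45) was 1.26 on TMM library sizes, 1.51 as a mean over nuclei, 1.49 without the top nucleus, 1.64 without marked nuclei, 1.498 without nuclei with 10 or more Mki67 and Top2a reads and 1.37 without Hist1h2bc (both chosen after seeing the data), and 1.41 to 1.49 on leaving out a library. The share of nuclei with member reads differed by 7.35 points for G14.5 minus G0, 8.97 for P7L minus G0 and 1.62 for P7L minus G14.5. For 10 or more reads these were 23.8, 30.3 and 6.49, after thinning 10.9, 15.2 and 4.23, and the last was 0.831 without marked nuclei and 1.17 to 2.07 on leaving out a library. Cenpe at G14.5 against G0 turned to -0.68 without marked nuclei and -0.070 without nuclei with 10 or more Mki67 and Top2a reads. The cause of these differences was not tested. The alternative that leaves out members with identical proteins was not run.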
